A study of Homo sapiens with 12 samples.

Results

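A set of 10 genes around the transcription factor NF-kB was followed through the 4 groups of the experiment: the cytokines IL1A, IL1B, IL11 and LIF, the chemokine CCL2, the adhesion receptor ICAM1, and the pathway's own components NFKBIA, NFKB2, RELB and BIRC3. They were taken by name from a table of 37471 genes, and all 10 were found in it. The cells were CAL62, a line from an anaplastic thyroid carcinoma, the undifferentiated and most aggressive form of thyroid cancer. A doxycycline-inducible promoter drove the microRNA hsa-miR-139-5p in 1 isogenic line and a scrambled, non-targeting sequence in the other, and all cells grew in RPMI-1640 with fetal bovine serum. RNA was taken from untreated cells (labelled 0 h) and from cells given doxycycline at 1 µg/ml for 96 h, which makes 4 groups of 3 libraries and 12 in all. The labels give the untreated cells as 0 h, whereas the series' design text describes growth for the same 96 h without the drug. If the labels hold, doxycycline and 96 h of culture cannot be told apart within a line. Whether each line was 1 clone or a pool of cells is not given in the sources used here. In each group the 3 columns carried the tags C, NE and TR, whose meaning is not given either. The tags are treated below as names of library sets, with 4 libraries in each.

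NF-kB factors are dimers of Rel-family proteins. In resting cells inhibitor proteins such as the product of NFKBIA (IκBα) hold them in the cytoplasm, and signals from interleukin-1 or tumour necrosis factor receptors destroy the inhibitor and release the dimer. A slower, non-canonical branch starts at receptors such as the lymphotoxin beta receptor, and runs through processing of p100, the product of NFKB2, which then acts with RELB. Released dimers bind kappa B motifs in DNA and switch on cytokines, adhesion molecules, survival genes and also their own inhibitors, so NFKBIA, NFKB2, RELB and BIRC3 are targets as well as parts of the pathway. In thyroid carcinoma the pathway is known for its links to inflammation and cell survival.

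The 250 bases before and 50 bases after the start site, from RefSeq on GRCh38.p14, were on hand for 7 of the 10 genes, in 10 windows, with LIF, CCL2 and RELB not matched. Both strands of these windows were searched for the kappa B consensus, which was present in 3 of the 7 genes (BIRC3, NFKBIA and NFKB2). It was also present in 11.3% of 35116 promoter windows of this length. The first count is by gene and the second by window, and a gene with several windows had more chances of a match. Windows with a match are shown because 3 components of the pathway carry the pathway's own motif next to their start sites. Capitals mark the matches, and positions count from the start site.
BIRC3 chr11:102317234-102317533, plus strand, matches at -199 and -135: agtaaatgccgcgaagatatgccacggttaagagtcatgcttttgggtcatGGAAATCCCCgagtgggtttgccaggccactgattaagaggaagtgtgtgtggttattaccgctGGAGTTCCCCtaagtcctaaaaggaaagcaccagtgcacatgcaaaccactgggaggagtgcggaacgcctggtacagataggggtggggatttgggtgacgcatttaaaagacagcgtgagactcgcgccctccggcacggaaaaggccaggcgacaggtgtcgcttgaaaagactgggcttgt
NFKBIA chr14:35404700-35404999, minus strand, match at -81: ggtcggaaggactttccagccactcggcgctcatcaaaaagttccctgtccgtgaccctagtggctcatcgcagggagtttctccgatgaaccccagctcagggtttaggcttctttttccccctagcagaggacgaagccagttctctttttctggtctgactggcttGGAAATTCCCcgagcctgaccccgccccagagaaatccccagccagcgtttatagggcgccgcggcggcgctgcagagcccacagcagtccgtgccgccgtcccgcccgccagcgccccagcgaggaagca
NFKB2 chr10:102395455-102395754, plus strand, matches at -176 and -21: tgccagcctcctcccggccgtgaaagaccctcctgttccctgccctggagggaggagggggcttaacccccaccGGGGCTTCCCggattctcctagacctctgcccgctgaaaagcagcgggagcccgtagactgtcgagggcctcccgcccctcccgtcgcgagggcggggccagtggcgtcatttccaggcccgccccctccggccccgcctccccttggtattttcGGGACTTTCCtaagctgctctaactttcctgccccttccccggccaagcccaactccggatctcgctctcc
NFKB2 had matches in 2 of its 3 windows, and the second of these is the one shown. No match was found in the windows of ICAM1, IL1A, IL1B and IL11, which says only that no 10 bases there met the consensus in full. The ICAM1 window holds ggaaattccg, which differs only in its last base from the NFKBIA match GGAAATTCCC. The search therefore does not show that ICAM1 lacks a kappa B site.

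The motif TGANTCA, the usual binding sequence of AP-1 factors, was added to the search later. It was found in the windows of IL1A (2 windows) and IL11 (1 window), and in 7.71% of all windows. The IL11 window is shown with that motif in capitals at -96, in contrast to the kappa B windows above.
IL11 chr19:55370414-55370713, minus strand: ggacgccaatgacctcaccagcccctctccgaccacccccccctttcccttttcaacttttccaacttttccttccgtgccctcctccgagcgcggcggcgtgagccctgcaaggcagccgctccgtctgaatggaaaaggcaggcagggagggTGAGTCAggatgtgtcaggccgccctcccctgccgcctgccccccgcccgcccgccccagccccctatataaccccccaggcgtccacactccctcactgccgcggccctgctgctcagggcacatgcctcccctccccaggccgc
A match is a description of the sequence and does not show that a factor binds there.

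The microRNA placed under the inducible promoter is shown with its seed, bases 2 to 8, in capitals, because the seed pairs with target transcripts. Whether doxycycline raised it was not tested here. It lies on the minus strand at chr11:72615102-72615124 (GRCh38.p14).
hsa-miR-139-5p: uCUACAGUgcacgugucuccagu
The complementary site ACTGTAG was looked for in the longest 3′ UTR that GENCODE 29 lists for each member. None of the 10 genes held it (0 of 10), over 3′ UTRs of 153 bases (NFKB2) to 3204 bases (LIF).

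Values are FPKM, fragments scaled to the length of the transcript and to the size of the library, so they can be compared between genes. From the steps between low FPKM values the libraries' depth came to between 8561000 and 17789000 fragments, rounded. At that depth LIF rested on about 2726 to 5684 fragments a library, and IL1B on about 9 to 65. Leukocyte markers PTPRC and CD3E were at 0 in all libraries, and the summed leukocyte list (5.46 to 12.6 FPKM) was nearly all CD68. The fibroblast list (33.4 to 101 FPKM) was nearly all COL1A1, and the endothelial list summed to 1.04 to 3.16 FPKM. KRT5 and KRT1 were at 0, and the keratinocyte list (9.97 to 22.3 FPKM) was nearly all KRT10. Of the labelled tissue's markers, PAX8 averaged 107 FPKM, whereas NKX2-1 was at 0 in all libraries and TSHR was at or near 0. The epithelial keratins KRT8 and KRT18 averaged 618 and 663 FPKM.

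LIF, a cytokine of the interleukin-6 family, stood far above the other 9 genes. Its FPKM was 95.9, 70.7 and 80.2 in the C, NE and TR libraries of the untreated miR-139 line, and 91.7, 81.3 and 79.7 after doxycycline. In the scrambled line it was 96.9, 88.2 and 82.2 untreated, and 74.2, 76.1 and 80.5 after doxycycline. LIF was higher than every other one of the 10 genes in all 12 libraries, at a mean of 83.1 ± 8.36 FPKM (SD, n = 12), above 88.8% of the tested genes. IL11, a second member of the same family, averaged 7.54 ± 1.27 FPKM, with a range of 6.07 to 9.76.

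Of the pathway components, NFKBIA averaged 20.8 ± 3.68 FPKM (SD, n = 12) and NFKB2 17.2 ± 1.75. ICAM1, which binds leukocyte integrins, averaged 13.3 ± 5.52, the widest relative spread of these 3. RELB averaged 2.73 ± 0.913 FPKM. BIRC3, an inhibitor of apoptosis that also adds ubiquitin to signalling proteins of the pathway, averaged 1.75 ± 0.464. NFKBIA, NFKB2, ICAM1 and IL11 followed each other with overlapping ranges, as did RELB, BIRC3 and IL1B. The steps without overlap were LIF over NFKBIA and IL11 over RELB, each in 12 of 12 libraries.

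The interleukin-1 genes were at the low end. IL1B, the secreted interleukin-1 that needs cleavage by caspase-1, averaged 1.23 ± 0.753 FPKM (SD, n = 12). IL1A, which signals through the same receptor and lies close to IL1B on chromosome 2, averaged 0.205 ± 0.123 FPKM, which was 65 fragments over the 12 libraries and between 2 and 13 in each. IL1B was above IL1A in 12 of 12 libraries, though their ranges overlapped. CCL2, the monocyte-attracting chemokine, was listed at 0 in 8 libraries and stood at 1 fragment (0.10 to 0.112 FPKM) in each of the other 4. IL1A and CCL2 were under the mean of 1 FPKM required for testing, which left 8 of the 10 genes with a test.

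**Figure D1:**
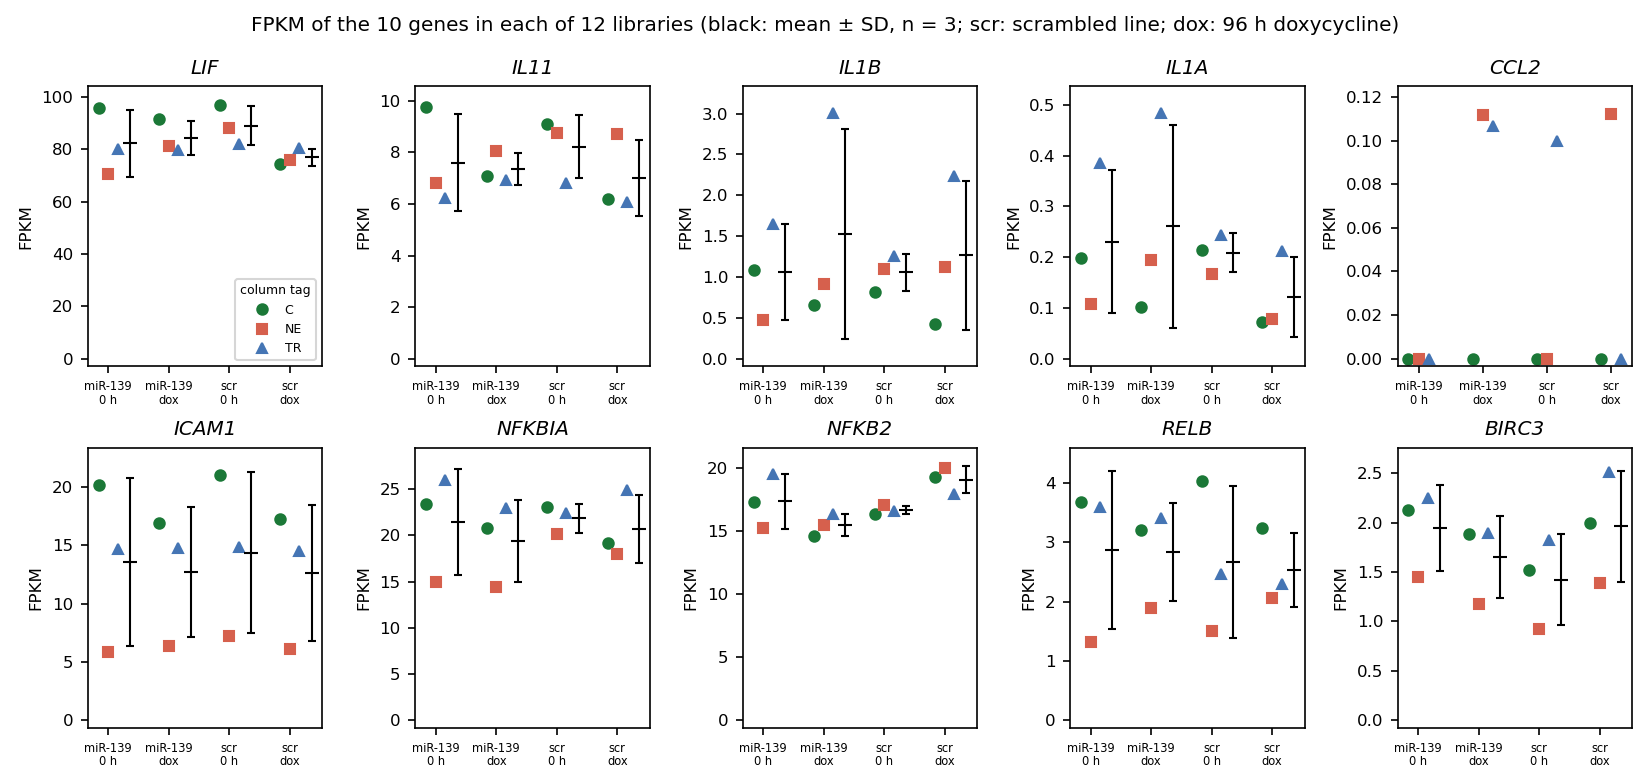
FPKM (linear y axes) of the 10 genes in each library, with the 4 groups along the x axis, green circles for tag C, red squares for NE, blue triangles for TR, and black bars for the mean ± SD of 3 libraries (none for CCL2, which is mostly at 0). In ICAM1, RELB and BIRC3 the red squares lie lowest in every group, whereas in IL1B and IL1A the blue triangles lie highest.

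The first comparison set the 4 NE libraries against the 8 C and TR libraries, within groups. It was planned with the tags known from an earlier description of these data. The 4 NE libraries share 1 tag, so the p-values measure the spread among libraries and not among sets of libraries. A gene was called where its limma p-value, adjusted over all tested genes, was under 0.05. Of the 8 tested genes, ICAM1, RELB, BIRC3 and NFKBIA were lower in NE and none was higher. ICAM1 was 62.0% lower. Among all 9778 tested genes 24.0% were lower and 28.0% higher in NE by the same test, so calls in this comparison were frequent. The median log2 difference of the 8 genes was -0.34, and that of all tested genes 0.02. The fit was on log2(FPKM + 1), with group and tag in the model. In bulk RNA, fewer cells that express a gene and less RNA per cell cannot be told apart.

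ICAM1 measured 5.87, 6.36, 7.22 and 6.07 FPKM in the NE libraries of the untreated and treated miR-139 line and the untreated and treated scrambled line. In C it was 20.1, 16.9, 21.0 and 17.3, and in TR 14.7, 14.8, 14.8 and 14.5. Every NE library was below every C and TR library, and the 4 TR libraries were nearly equal. The mean was 6.38 ± 0.60 FPKM (SD, n = 4) in NE and 16.8 ± 2.59 (n = 8) in the others, a log2 difference of -1.26 (SE 0.08, limma adjusted p = 2.21e-07). Of the sum of squares of ICAM1 over the 12 libraries, 97.6% lay between tags and 1.2% between groups, against medians of 58.3% and 11.7% over the tested genes. Antisense genes of GENCODE 29 overlap ICAM1 and LIF, and whether the counting used the strand is not given in the sources used here.

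RELB, the non-canonical subunit, measured 1.32, 1.89, 1.502 and 2.07 FPKM in NE, in the same order of groups. In C it was 3.67, 3.21, 4.03 and 3.24, and in TR 3.59, 3.42, 2.47 and 2.30. The NE and other libraries did not overlap, though the treated scrambled NE library came close to its TR library. RELB was 47.7% lower in NE (log2 difference -0.65, SE 0.13, limma adjusted p = 0.000788). The percentage compares mean FPKM, whereas the log2 difference is of log2(FPKM + 1), which understates the change of low genes. With 0.1 added in place of 1 the log2 difference was -0.895. RELB rested on about 38.7 fragments in its lowest library.

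BIRC3 measured 1.45, 1.18, 0.919 and 1.39 FPKM in NE. In C it was 2.13, 1.89, 1.52 and 1.99, and in TR 2.25, 1.89, 1.82 and 2.51. Here too every NE library was below the other 8, with a mean 38.4% lower (log2 difference -0.43, SE 0.10, limma adjusted p = 0.00247). With 0.1 added to FPKM in place of 1 the log2 difference was -0.662. For ICAM1, RELB and BIRC3 all 4 NE libraries were below all 8 others, a pattern that 10.0% of the tested genes had.

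NFKBIA, the inhibitor, measured 14.99, 14.4, 20.1 and 18.0 FPKM in NE. In C it was 23.4, 20.8, 23.1 and 19.2, and in TR 26.0, 22.9, 22.4 and 24.9. NE was the lowest library in 4 of 4 groups, but the untreated scrambled NE library was above the treated scrambled C library, so the ranges overlapped. The mean was 26.2% lower in NE (log2 difference -0.42, SE 0.09, limma adjusted p = 0.00143).

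NFKB2, by contrast, averaged 16.95 ± 2.21 FPKM (SD, n = 4) in NE and 17.3 ± 1.64 (n = 8) in the others, a log2 difference of -0.03 (SE 0.08, limma adjusted p = 0.780). LIF differed by -0.11 (SE 0.07, limma adjusted p = 0.241), but under quantile normalization by -0.28 (SE 0.07, limma adjusted p = 0.00375), which is a call. IL11 differed by 0.14 (SE 0.11, limma adjusted p = 0.286) and IL1B by -0.27 (SE 0.17, limma adjusted p = 0.194). Between tags lay 4.2% of the sum of squares of NFKB2, less than in all but 2.6% of the tested genes.

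Other measures moved with the NE tag. Mitochondrially encoded transcripts took 6.08% to 9.18% of the summed FPKM used here in NE and 11.4% to 13.1% in C and TR. The keratinocyte list summed to 16.8 to 22.3 FPKM in NE, 9.97 to 11.9 in C and 13.1 to 16.3 in TR. The part of these measures in the ICAM1, RELB, BIRC3 and NFKBIA differences was not tested.

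**Figure D2:**
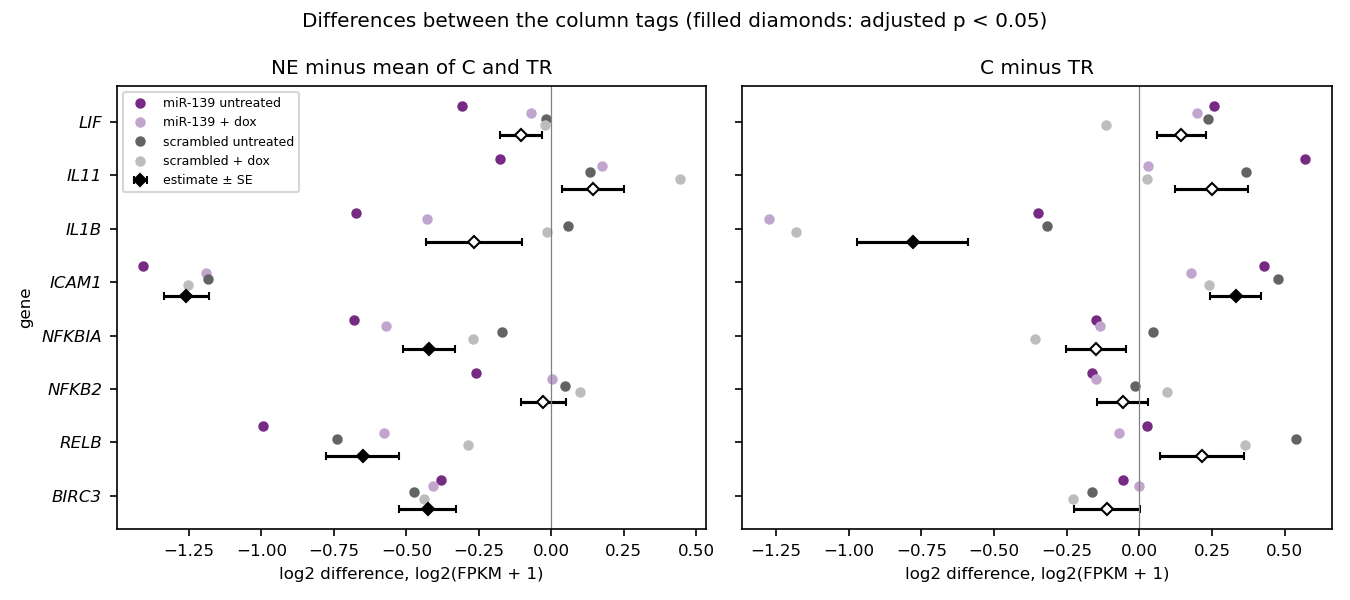
Log2 differences between the tags on the log2(FPKM + 1) scale (x axes) for the 8 tested genes (y axis), with coloured points for each group and diamonds for the limma estimate ± SE, filled where the adjusted p is under 0.05. ICAM1 lies near -1.26 in the left panel, and IL1B at -0.78 in the right panel.

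The second comparison set C against TR. IL1B was lower and ICAM1 higher in C, and the other 6 tested genes were not called. Among all tested genes 8.16% were higher and 8.49% lower in C. IL1B measured 1.08, 0.659, 0.811 and 0.428 FPKM in C and 1.65, 3.01, 1.26 and 2.24 in TR, in the same order of groups. Its NE values were 0.472, 0.914, 1.10 and 1.13, all under every TR library. TR was above C in 4 of 4 groups, with a larger gap in the treated than in the untreated cells of both lines. The means were 0.744 ± 0.274 (SD, n = 4) in C and 2.04 ± 0.764 (n = 4) in TR, a log2 difference of -0.78 (SE 0.19, limma adjusted p = 0.0144). This call was lost without the treated miR-139 group (-0.62, limma adjusted p = 0.102) and without the treated scrambled group (-0.65, limma adjusted p = 0.0855), and with no filter on low values (limma adjusted p = 0.0773).

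IL1A, which was too low for the test, had 16 fragments in the C libraries (of 51727000 in all), 14 in NE (of 48292000) and 35 in TR (of 52467000). Its FPKM was 0.385, 0.485, 0.244 and 0.212 in TR and 0.198, 0.103, 0.214 and 0.0730 in C. TR was above C in 4 of 4 groups. With no filter on low values the log2 difference was -0.21 (SE 0.06, limma adjusted p = 0.0949), which missed the threshold. Across the 12 libraries IL1A and IL1B had a Pearson r of 0.81, and of 0.54 with the tag means removed, over libraries that share tags and groups.

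ICAM1 was 18.8 ± 2.06 FPKM in C and 14.7 ± 0.157 in TR (SD, n = 4 each), a log2 difference of 0.33 (SE 0.09, limma adjusted p = 0.0217). Leaving out any 1 of the 4 groups ended this call, with limma adjusted p between 0.0607 and 0.108 and log2 differences from 0.28 to 0.38. IL11 was also above TR in C in 4 of 4 groups, at 8.04 ± 1.67 and 6.52 ± 0.421 FPKM, but its log2 difference of 0.25 (SE 0.12, limma adjusted p = 0.190) missed the threshold. The fibroblast list, nearly all COL1A1, summed to 33.4 to 58.7 FPKM in C and 84.0 to 101 in TR. The endothelial list was also lower in C (1.04 to 1.42 FPKM) than in TR (2.24 to 2.59), as was the keratinocyte list, while the leukocyte list, nearly all CD68, was higher in C (9.97 to 12.6) than in TR (5.46 to 6.99). None of these ranges overlapped, and the part of these lists in the IL1B and ICAM1 results was not tested.

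The comparisons the study was designed for asked what doxycycline changed in the line with the microRNA, what it changed in the scrambled line, and whether these changes differed. None of the 8 tested genes was called in any of these, either with limma on the 4 groups or with the tag as a replicate block (0 of 8 in each). Among all 9778 genes 0% were called in the miR-139 line without the block and 0.0205% with it. In the scrambled line 0% were called in both fits, and for the difference of the changes 0% without and 0.0102% with the block. Unadjusted p-values under 0.05 numbered 72, 47 and 41 genes (0.74%, 0.48% and 0.42%) without the block. With it they numbered 438, 391 and 336 (4.48%, 4.0% and 3.44%). All of these shares are under the share of 0.05 that such p-values would give where nothing differed. The tags pair the libraries, and the errors of all 8 genes were smaller in the blocked fit.

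In the miR-139 line the 8 log2 changes ran from -0.15 (BIRC3 and NFKB2) to 0.22 (IL1B, SE 0.36, limma adjusted p = 1.00). ICAM1, with its wide spread between tags, averaged 13.6 ± 7.20 FPKM untreated and 12.7 ± 5.57 after doxycycline (SD, n = 3 each). Its log2 change of -0.04 had an SE of 0.50 without the block and 0.10 with it. NFKBIA was lower after doxycycline in 3 of 3 tags, at 21.5 ± 5.75 and 19.4 ± 4.45 FPKM (log2 -0.13, blocked SE 0.12, limma adjusted p = 1.00 with the block).

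In the scrambled line the changes ran from -0.21 (IL11) to 0.29 (BIRC3). LIF averaged 89.1 ± 7.40 FPKM untreated and 76.9 ± 3.22 after doxycycline (SD, n = 3 each), and was lower in 3 of 3 tags (log2 -0.21, blocked SE 0.10, limma adjusted p = 0.998 with the block). IL11 and ICAM1 were also lower in 3 of 3 tags there, and NFKB2 higher in 3 of 3, none of them called.

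BIRC3 went in opposite directions in the lines. It was lower after doxycycline in 3 of 3 tags of the miR-139 line, from 1.95 ± 0.432 to 1.65 ± 0.412 FPKM (SD, n = 3 each). In the scrambled line it was higher in 3 of 3 tags, from 1.42 ± 0.459 to 1.96 ± 0.562. The difference between those changes was -0.44 on the log2 scale (SE 0.30, limma adjusted p = 1.00, and blocked SE 0.18, unadjusted p = 0.0301, limma adjusted p = 1.00). It missed the threshold in both fits, and the lowest BIRC3 library, untreated scrambled NE, rested on about 53.6 fragments. NFKB2 also fell on average in the miR-139 line (log2 -0.15) and rose in the scrambled line (0.18). In the miR-139 line, however, it rose in 1 of 3 tags. Its difference between the changes was -0.335 (SE 0.176, limma unadjusted p = 0.0814, and blocked SE 0.145, unadjusted p = 0.0372). Neither fit called it. Before adjustment, BIRC3 and NFKB2 were the only 2 of the 8 genes below 0.05 in the blocked fit.

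**Figure D3:**
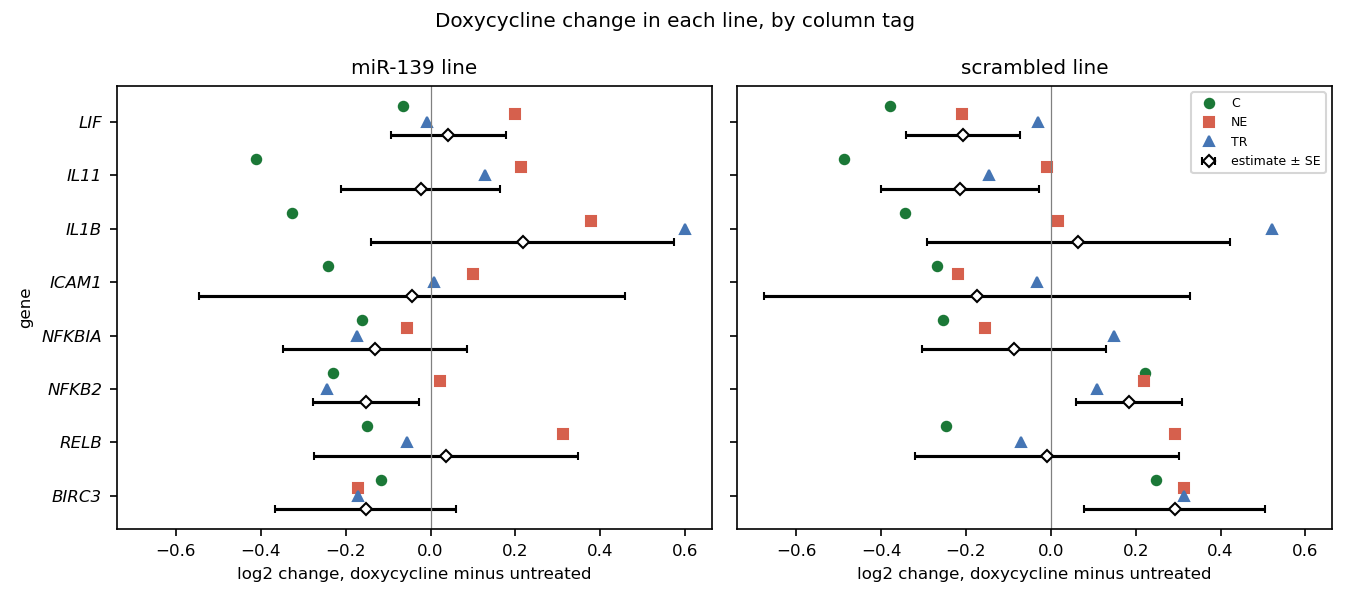
Log2 change with doxycycline on the log2(FPKM + 1) scale (x axes), with the miR-139 line in the left panel and the scrambled line in the right panel, for the 8 tested genes (y axis), with 1 marker for each tag and open diamonds for the limma estimate ± SE without the block. The BIRC3 markers lie left of 0 in the miR-139 line and right of 0 in the scrambled line. Most of the SEs drawn, which include the spread between tags, are as wide as the change. The SEs with the block are not drawn and were smaller. For ICAM1 in the scrambled line (change -0.17) the SE was 0.50 without the block and 0.10 with it.

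The lines were also compared with each other, after doxycycline and before it. After doxycycline 0% of all genes were called without the block and 0.112% with it, and before it 0% in both fits. None of the 8 genes was among them (0 of 8). Unadjusted p-values under 0.05 numbered 105 genes (1.07%) after doxycycline and 58 (0.59%) before it without the block. With the block they numbered 702 (7.18%) and 435 (4.45%). After doxycycline the largest difference among the 8 genes was in NFKB2, which measured 14.6, 15.5 and 16.4 FPKM in C, NE and TR of the miR-139 line, against 19.3, 20.0 and 18.0 in the scrambled line. The log2 difference was -0.29 (SE 0.12, unadjusted p = 0.0401, limma adjusted p = 1.00, and 0.516 with the block). In untreated cells NFKB2 measured 17.4, 15.2 and 19.6 FPKM in the first line, against 16.4, 17.1 and 16.6 in the scrambled line. That log2 difference was 0.049 (SE 0.125) and was not called. In untreated cells the largest difference was in BIRC3, which was higher in the miR-139 line by 0.29 on the log2 scale (SE 0.21, limma adjusted p = 1.00, and 0.928 with the block). NFKB2 was also the gene of the 8 with the largest share of its sum of squares between groups, 60.6%. The comparisons share groups, so a low or high value in 1 group enters several of them.

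Of the other genes of the pathway, 64 of a list of 105 were in the table and 43 could be tested. Members on chromosomes 3 to 9, which include NFKB1, TNF and IL6, were not analysed here. None of the 43 was called in any of the 5 comparisons of groups, with or without the block (0 of 43). RELA, the main canonical partner, was at 52.9 FPKM, and REL at 1.37, with neither called between tags (0 of 2). The receptors LTBR and TNFRSF12A, which feed the non-canonical branch, averaged 113 and 259 FPKM, and TNFRSF1A, the main tumour necrosis factor receptor, 95.4. IL1R1, the receptor for both interleukin-1 proteins, averaged 1.42 FPKM. It was called lower in NE (log2 -0.29, limma adjusted p = 0.0455). TNFRSF1A was called higher in NE (0.21, limma adjusted p = 0.0384) and lower in C than in TR (-0.31, limma adjusted p = 0.0318). LTBR and TNFRSF12A were not called between tags. The other cytokines on the list differed widely in level. IL32 averaged 94.6 FPKM, CSF1 9.21 and TNFSF9 6.41, whereas CCL20, CSF3 and IL18 stayed under 0.43 FPKM and CCL7 and CCL8 were at 0 in all libraries. The adhesion gene SELE and the receptor gene CD40 were at 0 in all libraries too, and VCAM1 stayed under 0.03 FPKM.

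Between tags, 13 of the 43 were higher and 11 lower in NE, beside the 28.0% and 24.0% of all tested genes. The largest increases were in IRAK1, a kinase of the interleukin-1 receptor complex (log2 0.56, limma adjusted p = 7.4e-05), NFKBIB, a second inhibitor (0.48), and GADD45B (0.40). The largest decreases were in PLAU, the urokinase plasminogen activator (-0.79, limma adjusted p = 5.2e-05), CFLAR, an inhibitor of caspase-8 (-0.55), and CYLD, a deubiquitinase that restrains the pathway (-0.55). By role, 1 of 5 inhibitors was higher and 1 lower, 3 of 11 kinases and adaptors were higher and 3 lower, and 4 of 10 other targets were higher and 4 lower. NFKBIA and NFKBIB, both inhibitors, thus moved in opposite directions in NE. BIRC2, the neighbour and close relative of BIRC3, was lower in NE (-0.42, limma adjusted p = 0.000794). Of the cytokines, CSF1 was called lower (-0.54) and IL32 higher (0.32).

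Between C and TR, 7 of the 43 were higher and 9 lower in C, beside 8.16% and 8.49% of all tested genes. The largest increases were in F3, tissue factor (log2 0.94, limma adjusted p = 6.7e-05), GADD45B (0.44) and NUAK2 (0.44). The largest decreases were in BCL3, a nuclear cofactor of NF-kB (-0.69, limma adjusted p = 0.00151), PLAU (-0.59) and TNFSF9 (-0.50). Of the genes that process interleukin-1 or its inflammasome, CASP4 (0.40) and NLRP3 (0.39) were called higher in C, and PYCARD (-0.42) and CAPN2 (-0.25) lower.

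**Figure D4:**
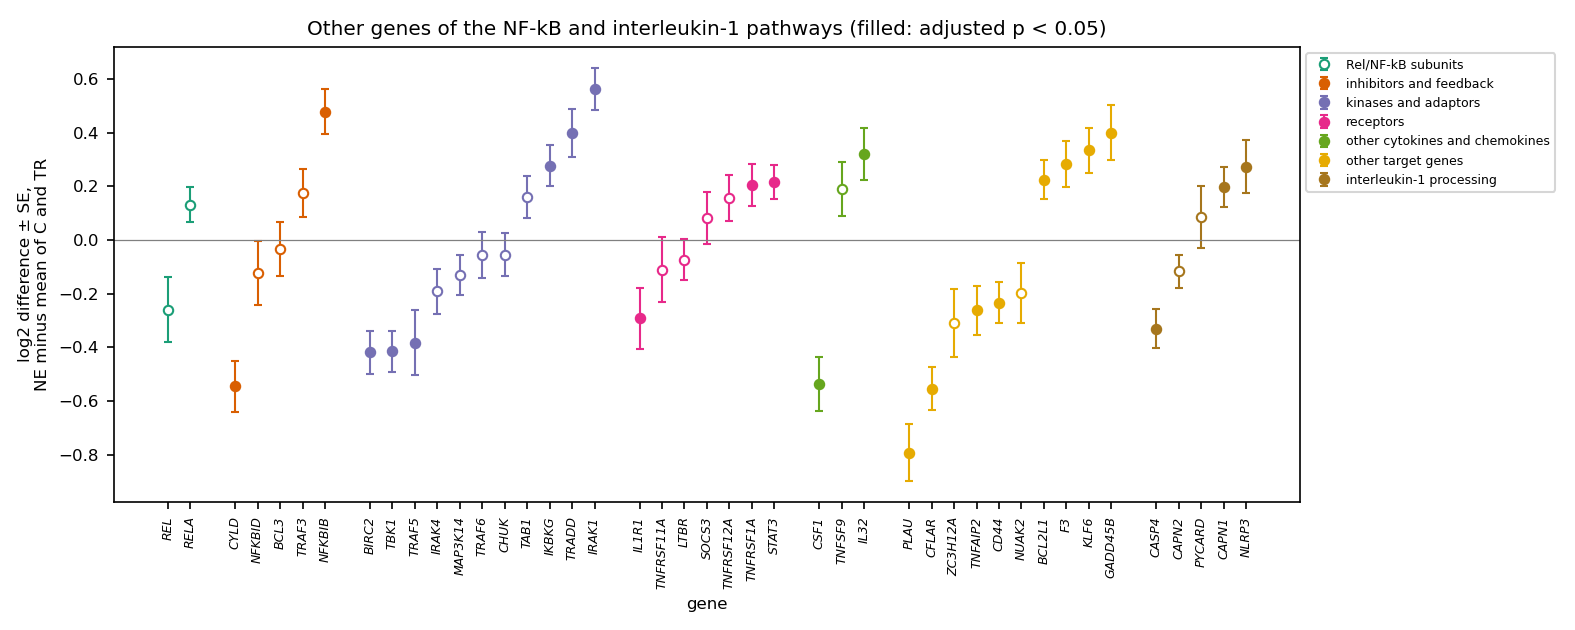
Log2 difference ± SE between NE and the mean of C and TR on the log2(FPKM + 1) scale (y axis) for the 43 other tested genes of the pathway (x axis), coloured by role, with filled points where the adjusted p is under 0.05. The filled points lie on both sides of 0 in most roles, from PLAU at -0.79 to IRAK1 at 0.56.

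The genes most like each of the 8 over the 12 libraries were picked by Pearson r among the tested genes. The libraries share tags, so r with the tag means removed is given beside it, as a description. ICAM1 was most like ATP9A (r = 0.97, or 0.33 without the tag means) and NFE2L2 (0.97, or 0.28), so its likeness lay mostly in the tags. NFKBIA was most like LGALS3BP (0.96, or 0.86) and ITGB4 (0.94, or 0.85). RELB was most like RP11-469M7.1 (0.96, or 0.82) and SQRDL (0.95, or 0.81). BIRC3 was most like VAMP4 (0.95, or 0.85) and SLC26A10 (0.92, or 0.67). IL1B was most like TACR2 (0.93, or 0.81) and CD9 (0.92, or 0.73). LIF was most like SH3BGR (0.89, or 0.84) and HIST2H2BF (0.86, or 0.79). IL11 was most like SLC35F6 (0.86, or 0.83) and AXIN1 (0.85, or 0.76). NFKB2 was most like COQ9 (0.88, or 0.89) and AP005482.1 (0.87, or 0.88), with no loss when the tag means were removed. Among the 10 genes themselves, ICAM1 and RELB had an r of 0.90, or 0.28 without the tag means.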

How the data were processed

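FPKM values of polyA RNA were deposited by the authors as 1 table for 12 libraries. Per the submitters' processing notes, the tools were STAR 2.5, TopHat, TopHat2 2.0.10, Bowtie 1.0.0, Cufflinks, HTSeq, SAMtools (1.3.1 and 0.1.19) and FastQC 0.11.0, with the builds hg19 and GRCh37. Which tool made the values, with which annotation and strand setting, is not given in the sources used here. The kit keeps the strand, per the labels' protocols. Chromosomes 3 to 9 were not used here.

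The members and lists were chosen with earlier results of these data known. Genes named besides the 10 members were the pathway genes with the 3 largest differences in each direction between tags and some of those called. The 2 genes most like each member were also named. Other called pathway genes are counted but not named. A few others (levels of receptors and cytokines, REL and RELA) were chosen after their values were seen.

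Columns were assigned to groups by name and not to single samples. The tags C, NE and TR were checked as a pairing on deviations from group means: 18 same-tag pairs of libraries had r from 0.33 to 0.86, and 36 other pairs from -0.66 to 0.14. The tags therefore served as a replicate block. The labels name no separate cultures for the libraries, so p-values measure only the spread among the 12 libraries, and that may be technical.

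Tests used limma (version 3.58.1, R 4.3.3), two-sided, on log2(FPKM + 1), with a variance trend, on the 9778 genes with a mean of at least 1 FPKM, adjusted by Benjamini-Hochberg, and were tested on simulated data. This scale understates the change of low genes. Alternatives were other pseudocounts, filters and scalings, the block, and leaving out libraries or groups.

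Depth was recovered from FPKM steps: values of 2294 of 4227 low genes (54.3%) came out as whole multiples within 0.01. Of 704 such genes with 1 transcript, 542 gave a depth within 0.1% of the median. Fragments of other genes are approximate, from the longest coding transcript in GENCODE 29, and no count test was run. Counts cover counting error only. Promoters and the miRNA are from RefSeq (GRCh38.p14), whose build differs from the one of the deposited table.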

Additional observations from a re-analysis of the deposited data

Results flagged for a closer look

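The doxycycline change of BIRC3 in the miR-139 line minus that in the scrambled line was -0.445 on the log2(FPKM + 1) scale. It drew attention because all 3 tags went down in the first line and all 3 went up in the other. The difference itself was tested and missed the threshold (limma adjusted p = 1.00 with and without the block). BIRC3 was also higher in the untreated miR-139 line than in the untreated scrambled line in 3 of 3 tags (log2 0.29, blocked SE 0.13, limma adjusted p = 0.928), and these untreated libraries enter both values. For NFKB2 the difference of the doxycycline changes was -0.335, which was not called either, and 1 of its 3 tags rose in the miR-139 line.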

How the results depend on the processing

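The 4 calls in NE (ICAM1, RELB, BIRC3, NFKBIA) kept direction and side of the threshold under every alternative in which they were tested. A filter at a mean of 5 FPKM left RELB and BIRC3 untested. The 40 levels carry no test, and changed little under upper quartile scaling (LIF in the untreated scrambled line, 89.1 to 89.9 FPKM). LIF was called lower in NE under quantile normalization (-0.28, limma adjusted p = 0.00375). For members compared between groups, 476 alternative values kept direction and side and 29 changed sign, all of values that were not called. No scaling moved the median of all genes by over 0.1. With the replicate block, 2 genes were called for doxycycline in the miR-139 line, 1 for the difference of the changes and 11 between treated lines, against 0 without, and it changed no call of a member. Quantile normalization gave 1 gene in the miR-139 line and 1 between treated lines. With no filter, 6 genes were called in the scrambled line, 1 for the difference of changes, 5 between treated lines, 2 between untreated lines and 996 between C and TR (1628 otherwise). Leaving out a tag gave 0 to 2 genes in the miR-139 line and 0 to 6 between treated lines, and leaving out a group gave 740 to 1148 between C and TR. RELB in the scrambled line was 0.011 with a pseudocount of 0.1. The signs that changed on leaving out a tag were, as lowest and highest, IL11 (-0.14, 0.17), LIF (-0.037, 0.095), ICAM1 (-0.117, 0.054) and RELB (-0.10, 0.13) for doxycycline in the miR-139 line, IL1B (-0.16, 0.27) and RELB (-0.16, 0.11) in the scrambled line, and NFKBIA (-0.12, 0.10) for the difference of changes. Between treated lines these were ICAM1 (-0.002, 0.043) and RELB (-0.048, 0.205), and between untreated lines IL1B (-0.16, 0.21), NFKBIA (-0.19, 0.11), NFKB2 (-0.039, 0.151) and RELB (-0.11, 0.15). NFKB2 in NE ranged from -0.071 to 0.049 on leaving out a group. The cause was not tested. IL1A, CCL2 and IL1B are limited by depth.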
